A study of Mus musculus with 16 samples.

Results

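The canonical histone genes are the replication-dependent genes that encode the H1 linker and the H2A, H2B, H3 and H4 core histones, and in the mouse nearly all of them lie in a few dense clusters. They were chosen by symbol, H1f1 to H1f6 and every H2ac, H2bc, H3c or H4c gene with a number, which picked 63 of 21887 protein-coding genes: 6 H1, 17 H2A, 16 H2B, 12 H3 and 12 H4 genes. ATAC-seq marks open DNA by transposase insertion, and the data analysed here are 16 lists of ATAC-seq peaks, 2 replicates in each of 8 groups. All libraries come from mouse embryonic stem cells (ESCs) with the Rx:GFP knock-in or from embryoid bodies grown from them by SFEBq, a serum-free aggregate culture that leads towards neural and retinal tissue.

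The 12 ESC lists, from cells kept in 2i+LIF, cover 6 groups. They are the parental Rx:GFP line, 2 p53 knockout clones named C9 and H9, each a single clone, and the Wdr5 and p53 double knockout with a stably transfected plasmid that was the empty backbone, wild-type WDR5 (WDR5WT) or WDR5 with the S91K-Y191F changes. The 3 plasmid groups thus all lack endogenous Wdr5 and p53. The 4 embryoid body lists cover the parental line, at day 4 by its label, and the double knockout without a plasmid, whose labels give no day. All 4 come from cultures with 5% KSR (a serum replacement) and 2% Matrigel (a matrix gel) at day 1. No label says that replicates are separate cultures, so the spread between them may be technical.

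Canonical histone genes are transcribed mainly in S phase. Their mRNAs mostly lack introns and end in a stem-loop in place of a poly(A) tail. NPAT gathers at the clusters in the histone locus body and drives transcription, and many H2A and H2B genes are arranged head to head around a shared promoter. WDR5 holds together the MLL family of histone H3 methyltransferase complexes. The p53 protein, encoded by Trp53, activates transcription after DNA damage and other stress.

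The genes fall into 3 clusters, with coordinates in mm10 throughout. The chromosome 3 cluster (chr3:96219885-96270192) holds 10 genes, 4 H2A, 2 H2B, 3 H3 and 1 H4, and no other protein-coding gene. The first chromosome 13 cluster (chr13:21715711-22043658) holds 22 genes, including the linker histone gene H1f5, and the second (chr13:23531044-23934913) holds 31, including the other 5 H1 genes. The first also spans 4 other protein-coding genes, H4bc24, Zfp184, Pom121l2 and Prss16, and the second spans 6. The symbol rule does not pick H4bc24. Most are a single short transcription unit, so a peak within 1000 bp of either gene end, called an end peak here, covers the promoter and usually the whole gene. In 9 head-to-head H2A and H2B pairs the start sites lie 164 to 281 bp apart, and in 8 of them no list had a peak at 1 gene without the other. Paired genes therefore share their peaks and are not independent.

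The promoters differed by class in the letters they hold. Promoter windows of 300 bases (250 before to 50 after the start site, RefSeq, GRCm38.p6) were found for 58 of the 63 genes. Searched on both strands, the CCAAT letters were present in all 6 H1, 17 H2A, 14 H2B and 10 H3 windows but in 3 of 11 H4 windows, against 37.4% of 32851 windows of all genes. The TATA box letters TATAAA were in 34 of 58 windows (58.6%, against 13.6% of all). The octamer ATTTGCAT, which POU2F1 binds, was in 12 (20.7%, against 1.74%), of which 6 were H2A and 6 H2B. The letters AAACACA, the H1 box, were in 5 of 6 H1 windows and in 9 windows in all (15.5%, against 7.18%). None of these motifs lies within another. The windows of head-to-head pairs overlap, so the same site can count for both genes, and some promoters are near-identical, as described below. The octamer windows include both genes of the pairs H2ac12 and H2bc12, H2ac8 and H2bc8, and H2bc1 and H2ac1. These window counts are therefore not counts of independent sites. The 150 bases before the start site are shown for 6 genes that the results below turn on, 1 or 2 per class, with these motifs in capitals on either strand.
H1f2 (chr13:23738657-23738806, plus strand): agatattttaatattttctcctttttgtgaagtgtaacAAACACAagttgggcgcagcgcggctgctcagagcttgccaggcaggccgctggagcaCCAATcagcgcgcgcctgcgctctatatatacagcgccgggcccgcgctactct
H2bc12 (chr13:22035671-22035820, plus strand): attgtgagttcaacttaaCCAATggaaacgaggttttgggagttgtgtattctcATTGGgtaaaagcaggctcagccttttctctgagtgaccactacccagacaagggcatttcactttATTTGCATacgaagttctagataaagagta
H2bc9 (chr13:23543445-23543594, minus strand): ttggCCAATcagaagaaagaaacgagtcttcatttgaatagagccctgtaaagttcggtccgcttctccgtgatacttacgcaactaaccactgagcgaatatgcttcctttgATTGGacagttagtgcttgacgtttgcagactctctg
H2ac20 (chr3:96220881-96221030, minus strand): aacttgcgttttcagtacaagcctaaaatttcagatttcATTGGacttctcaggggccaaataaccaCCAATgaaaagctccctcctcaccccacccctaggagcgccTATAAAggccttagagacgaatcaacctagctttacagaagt
H3c10 (chr13:21717478-21717627, plus strand): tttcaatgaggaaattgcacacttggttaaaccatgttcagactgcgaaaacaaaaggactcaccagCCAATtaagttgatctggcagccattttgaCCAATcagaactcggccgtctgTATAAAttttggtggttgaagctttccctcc
H4c9 (chr13:22041363-22041512, minus strand): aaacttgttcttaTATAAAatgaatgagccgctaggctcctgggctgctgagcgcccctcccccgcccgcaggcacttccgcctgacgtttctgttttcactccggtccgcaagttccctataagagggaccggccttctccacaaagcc
The capitals show CCAAT letters in H1f2, H2bc12, H2bc9, H2ac20 and H3c10 but not in H4c9. They are a description of letters, not of bound sites.

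Some of these promoters are copies of each other. In 9 genes, at least 50% of the 50-base stretches of the promoter window also occur in the promoter of another, non-overlapping gene, a property of 3.94% of the 27025 genes with a promoter sequence. They are H3c15, H2ac19, H2ac18 and H3c14 on chromosome 3, and H2bc23, H2ac23, H4c17, H4c18 and H2ac24 in the first chromosome 13 cluster, and are called the copied genes here. Reads from such stretches can map to several places. How the authors treated those reads is not given in the sources used here. H2bc21, H2bc4, H3c1, H3c7 and H4c14 have no promoter sequence, so they could not be checked and are counted as not copied. The first 4 stretches below are of copied genes, which make up every gene called between parental and p53 knockout ESCs, and the last 2 are of an H4 pair that is less alike, with capitals for the longest run of bases that both stretches hold.
H4c17 (chr13:21811596-21811745, plus strand): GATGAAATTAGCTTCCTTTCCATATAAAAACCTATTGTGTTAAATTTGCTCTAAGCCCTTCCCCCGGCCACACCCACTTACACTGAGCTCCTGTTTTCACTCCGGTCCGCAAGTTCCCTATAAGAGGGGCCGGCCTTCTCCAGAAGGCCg
H4c18 (chr13:21832198-21832347, minus strand): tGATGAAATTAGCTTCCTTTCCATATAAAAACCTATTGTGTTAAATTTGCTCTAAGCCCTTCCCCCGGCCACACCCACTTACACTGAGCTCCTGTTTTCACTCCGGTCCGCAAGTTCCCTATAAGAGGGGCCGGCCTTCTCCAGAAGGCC
H3c14 (chr3:96246535-96246684, plus strand): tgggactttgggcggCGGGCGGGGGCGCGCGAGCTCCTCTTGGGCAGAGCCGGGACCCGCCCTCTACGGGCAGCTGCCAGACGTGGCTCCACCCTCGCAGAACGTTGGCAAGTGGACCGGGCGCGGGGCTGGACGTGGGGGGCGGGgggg
H3c15 (chr3:96239128-96239277, minus strand): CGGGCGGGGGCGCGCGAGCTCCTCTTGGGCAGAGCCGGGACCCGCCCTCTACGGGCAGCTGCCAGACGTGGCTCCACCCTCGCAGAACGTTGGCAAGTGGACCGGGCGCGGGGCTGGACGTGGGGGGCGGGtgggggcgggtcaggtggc
H4c11 (chr13:21734884-21735033, plus strand): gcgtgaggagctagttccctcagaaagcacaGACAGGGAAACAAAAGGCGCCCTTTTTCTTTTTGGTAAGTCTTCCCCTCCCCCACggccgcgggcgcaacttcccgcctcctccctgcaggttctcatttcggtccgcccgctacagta
H4c12 (chr13:21750554-21750703, minus strand): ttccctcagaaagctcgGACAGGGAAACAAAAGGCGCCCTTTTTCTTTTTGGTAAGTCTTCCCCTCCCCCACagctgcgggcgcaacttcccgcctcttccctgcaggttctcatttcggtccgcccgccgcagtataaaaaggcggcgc
H4c17 and H4c18 share a run of 149 bases in these stretches, and H3c14 and H3c15 share 131. The H4 genes H4c11 and H4c12 share 55 and did not meet the rule, with 11.6% of their 50-base stretches in common.

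Whole lists differed widely before any histone gene was considered. They held 1535 to 32709 peaks in ESCs and 75673 to 93646 in embryoid bodies, and the share of all protein-coding genes with an end peak ran from 1.25% in backbone replicate 1 to 66.7% in parental embryoid body replicate 1. The lists hold no read counts, so their depth is unknown and the counts carry no counting interval. The ESC and embryoid body lists have different formats and are set side by side by presence only. The widest peak was 18810 to 29214 bp in the parental, backbone and S91K-Y191F lists and 7727 to 15921 bp in the C9, H9 and WDR5WT lists. By this 1 measure these 6 and 6 ESC lists stand apart. This division cannot be told apart from genotype in any comparison that crosses it. Median peak widths overlapped, at 579.0 to 654.0 bp in the former 6 lists and 621.0 to 668.0 bp in the latter 6. Of 8 pluripotency markers, 1 to 7 had an end peak in an ESC list and 7 or 8 in an embryoid body list. Of 6 neuroectoderm and eye field markers, the numbers were 0 to 3 and 4 to 6, and fibroblast markers had end peaks in 0 to 2 of 4 genes in ESCs and 3 or 4 in embryoid bodies. Of 4 mesoderm and endoderm markers, the numbers were 0 to 3 and 3 or 4. Of these, Sox17 went the other way, with an end peak in 8 ESC lists and 1 embryoid body list. Wdr5 had an end peak in WDR5WT replicate 2 and in all 4 embryoid body lists, and Trp53 in 5 ESC lists and all 4 embryoid body lists. An end peak does not check a deletion.

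In the ESC lists, histone genes had end peaks at least as often as genes at large. Of the 63 genes, 57 (90.5%, against 40.8% of all genes) had one in parental ESC replicate 1 and 17 (27.0% against 12.4%) in replicate 2, and the replicates of S91K-Y191F lay as far apart, with 19 (30.2% against 13.1%) and 53 (84.1% against 33.8%). Clone C9 had 32 and 31 (50.8% and 49.2%, against 43.0% and 44.3%), clone H9 39 and 42 (61.9% and 66.7%, against 48.2% and 48.8%), and WDR5WT 43 and 48 (68.3% and 76.2%, against 49.5% and 54.9%). The backbone lists had 1 and 9 (1.59% and 14.3%, against 1.25% and 4.91%). As group means these are 37.0 ± 28.3 genes in parental ESCs, 36.0 ± 24.0 in S91K-Y191F, 5.0 ± 5.66 in backbone, 31.5 ± 0.707 in C9, 40.5 ± 2.12 in H9 and 45.5 ± 3.54 in WDR5WT (SD, n = 2 each). The parental and S91K-Y191F ranges span those of C9, H9 and WDR5WT, and only the backbone lists lie below every other ESC list.

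By end peaks, the direction against the background was the other way in embryoid bodies. Parental lists had end peaks at 38 and 36 histone genes (60.3% and 57.1%, against 66.7% and 65.3% of all genes), and double knockout lists at 37 and 38 (58.7% and 60.3%, against 64.6% and 66.4%). Without the 9 copied genes, which had no end peak in any embryoid body list, the shares were 66.7% to 70.4% of 54 genes. Both are within a few points of the background, on either side of it. By promoter window, the histone genes lay above the background in all 4 lists. A peak overlapped 35 and 33 of 58 histone windows in parental and 33 and 34 in double knockout lists. Among all promoter windows the shares were 47.5% and 45.9%, and 44.4% and 46.6%, in the same order.

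**Figure D1:**
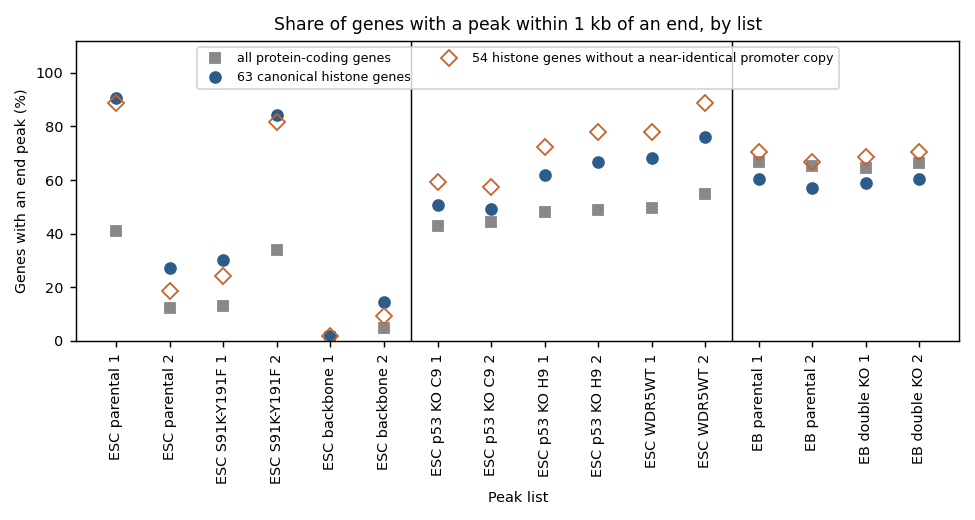
Share of genes with a peak within 1 kb of a gene end (y axis, %) in each of the 16 peak lists (x axis). Circles are all 63 canonical histone genes, diamonds the 54 with no near-identical promoter copy found and squares all 21887 protein-coding genes. Circles lie above squares in all 12 ESC lists, by little in backbone replicate 1 (1.59% against 1.25%), and below them in all 4 embryoid body lists.

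The lists were also cut to a common number of peaks, which removes little from the short ones. Parental replicate 2 holds 5330 peaks and S91K-Y191F replicate 1 holds 5174, against 26305 to 32709 in the C9, H9 and WDR5WT lists. Among the 5000 peaks with the highest −log10 p of each list, a number chosen after seeing the data, end peaks were found at 13 histone genes in each parental ESC list (20.6%, against 12.6% and 11.7% of all genes). In S91K-Y191F they were found at 18 and 29 (28.6% and 46.0%, against 12.8% and 15.2%). In C9 they were found at 0 and 2, in H9 at 0 and 0 and in WDR5WT at 0 and 0, where at least 13.3% of all genes had one. Among the 54 genes counted as not copied, the same count was 9 and 8 in parental and 13 and 20 in S91K-Y191F lists. Of the top peaks in embryoid bodies, 4 and 9 histone genes had one in parental and 8 and 6 in double knockout lists (6.35% to 14.3%, against 15.1% to 17.9%). The cut takes nearly the whole of parental replicate 2 and S91K-Y191F replicate 1, so their counts do not compare rank with the longer lists. Parental replicate 1, with 24367 peaks, is close in length to C9 replicate 1, with 26305, and had 13 histone genes against 0. S91K-Y191F replicate 2, with 29, holds 16257 peaks. These contrasts rest on single lists and cross the division by widest peak, so they cannot be told apart from it. By percentile within its own list, the median histone end peak stood at 53.5 and 35.2 in parental, 28.2 and 60.5 in S91K-Y191F, 36.7 and 36.2 in C9, 49.8 and 49.0 in H9 and 49.4 and 38.6 in WDR5WT lists. These percentiles overlap between the groups. The backbone lists hold fewer than 5000 peaks.

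**Figure D2:**
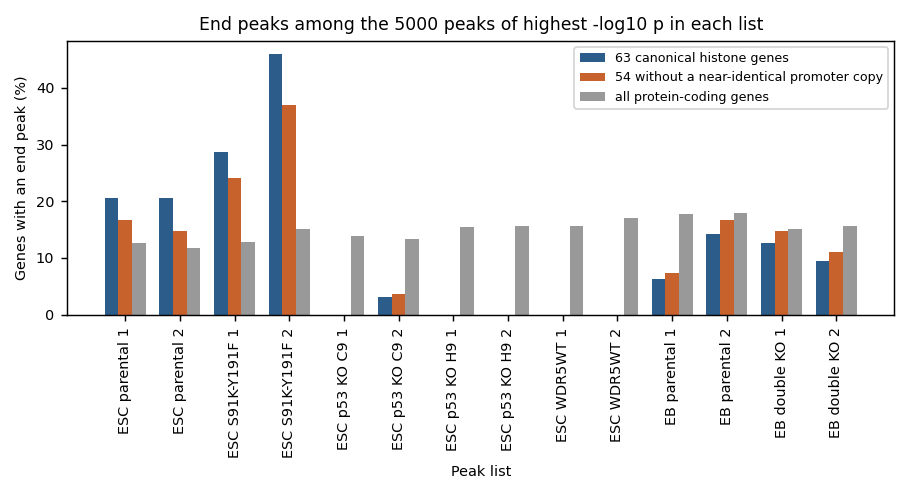
Share of genes with an end peak among the 5000 peaks of highest −log10 p (y axis, %) in the 14 lists that hold that many (x axis). Blue bars are the 63 canonical histone genes, orange bars the 54 with no near-identical promoter copy found and grey bars all protein-coding genes. Blue exceeds grey in the 2 parental and 2 S91K-Y191F ESC lists and is 0 in 5 of the 6 C9, H9 and WDR5WT lists. But 5000 peaks are nearly all of parental replicate 2 (5330) and S91K-Y191F replicate 1 (5174), so their bars do not compare rank with those of longer lists.

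No histone gene had an end peak in all 16 lists, and 5 had one in 15. H4c12 (chr13:21750145-21750553), an H4 gene, lacked a peak only in backbone replicate 2. H2ac6 and H2bc4, a neighbouring H2A and H2B gene, and H4c1 and H3c1, a neighbouring H4 and H3 gene, lacked one only in backbone replicate 1. At H4c12 the −log10 p was 4.251 and 3.447 in parental ESCs, 4.041 and 3.820 in C9, 3.938 and 3.983 in H9, 3.756 and 4.584 in S91K-Y191F, 3.935 and 4.435 in WDR5WT and 3.486 in backbone replicate 1. Each is a value against the background of its own library, and the one in backbone replicate 1 stood at percentile 41.5 of its list. The summit at H4c12 lay 37 to 81 bases downstream of the start site in 10 of the 11 ESC lists with a peak and 267 bases downstream in backbone replicate 1. In embryoid bodies the H4c12 peak had a fold enrichment of 3.848 and 3.257 in parental and 3.395 and 3.386 in double knockout lists.

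At the other end, H1f6, a linker histone gene of the testis, had an end peak in no list, like 26.5% of all genes. H2bc1 and H2ac1, a divergent pair of testis H2B and H2A genes, shared a peak in 5 lists. These were parental ESC replicate 1, H9 replicate 1, parental embryoid body replicate 1 and both double knockout embryoid body lists. The H2bc1 and H2ac1 peak ranked low in the ESC lists, at percentiles 7.46 and 5.77 by −log10 p, and near the middle in the embryoid body lists, at 50.6, 62.4 and 48.7. Each percentile is within its own list, and the ESC and embryoid body ranks do not compare. H1f2, a somatic linker histone gene, was the H1 gene found most often, with an end peak in 14 lists. It was absent from parental ESC replicate 2 and backbone replicate 1.

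The member peak of highest −log10 p was the same for several lists. It was the divergent promoter of H2ac11 and H2bc11 in parental ESC replicate 1, C9 replicate 2 and both WDR5WT lists, where it stood at percentiles 88.3, 86.4, 70.0 and 77.9. The peak between H4c1 and H3c1 led in C9 replicate 1 and H9 replicate 2, and that of H2ac22 and H2bc22 in H9 replicate 1. The copied genes H4c18 and H2ac24 led in parental replicate 2 and backbone replicate 2, and H3c15 and H2ac19 in S91K-Y191F replicate 2, at percentile 91.8. In embryoid bodies the leading peaks lay at H2bc9, at the divergent promoter of H2ac12 and H2bc12, and at that of H2bc7 and H2ac7 in both double knockout lists, at percentiles 96.0, 98.0, 97.4 and 96.5. The median percentile of all histone end peaks was 1.22 to 60.5 in the ESC lists and 79.1 to 85.9 in the embryoid body lists. These are ranks within lists of different length and format, so they do not compare ESCs with embryoid bodies.

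**Figure D3:**
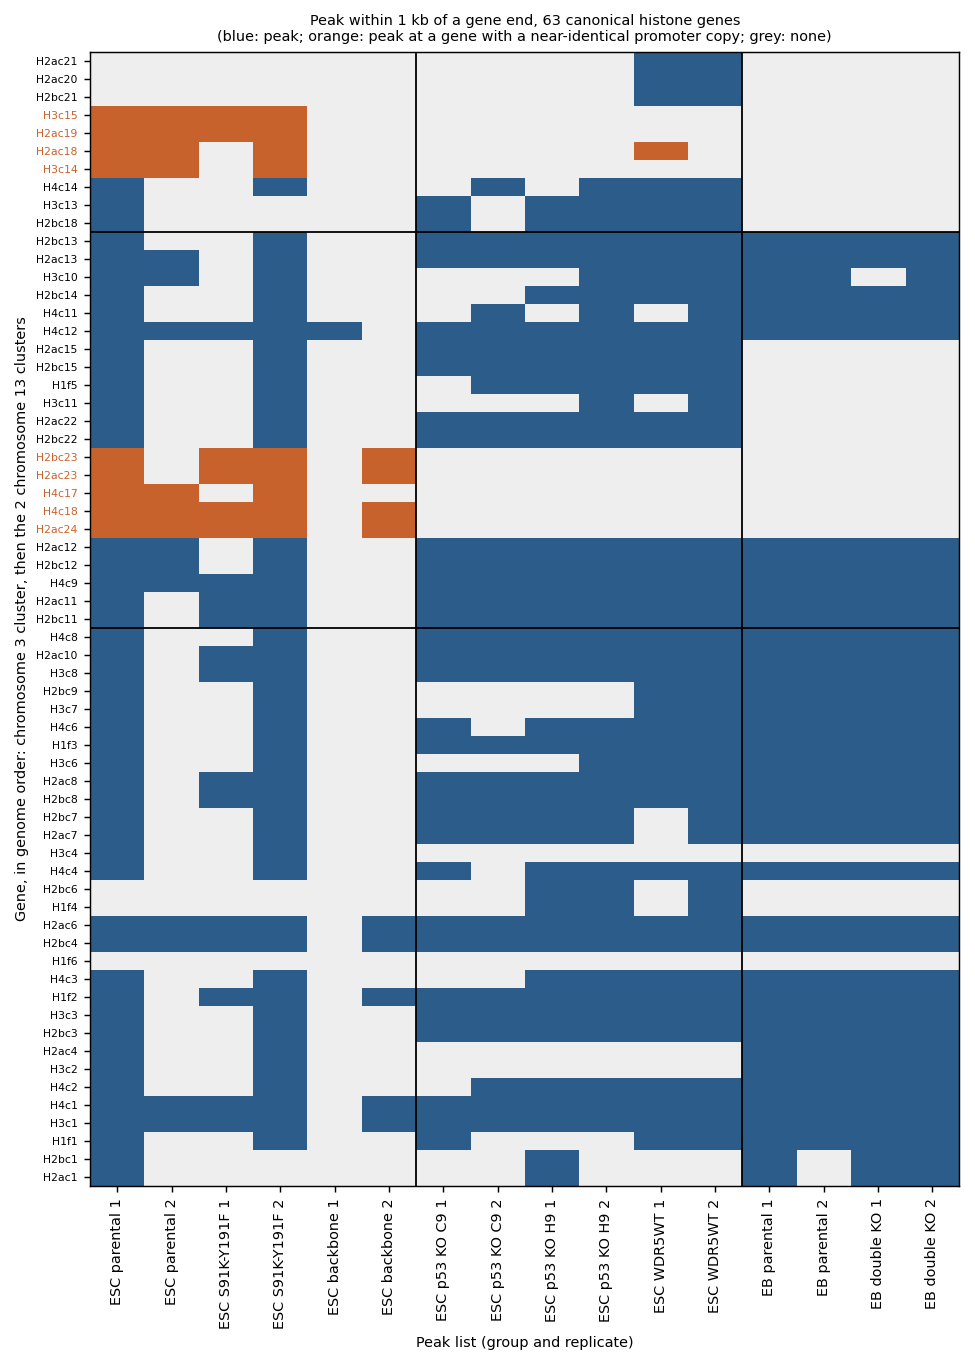
Presence of a peak within 1 kb of an end of each of the 63 canonical histone genes (rows, in genome order with lines between the 3 clusters) in each of the 16 lists (columns, with lines between the parental, S91K-Y191F and backbone ESC lists, the C9, H9 and WDR5WT ESC lists, and the embryoid body lists). Filled cells are peaks, orange for the 9 genes with a near-identical promoter copy; the orange cells lie in the first block with a single exception, and the chromosome 3 cluster at the top is empty in all 4 embryoid body lists.

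The clusters differed most in embryoid bodies. None of the 10 chromosome 3 genes had an end peak in any embryoid body list, while in ESCs 7 and 4 had one in parental, 2 and 5 in S91K-Y191F, 2 and 1 in C9, 2 and 3 in H9, 7 and 6 in WDR5WT and 0 and 0 in backbone lists. In the second chromosome 13 cluster the embryoid body lists had end peaks at 27 and 25 (parental) and 27 and 27 (double knockout) of 31 genes, and the ESC counts were 28 and 4, 9 and 26, 18 and 16, 23 and 22, 21 and 25, and 0 and 5 in the same order of groups. The first chromosome 13 cluster lay between, with 11 and 11 (parental) and 10 and 11 (double knockout) of 22 genes in embryoid bodies, and 22 and 9, 8 and 22, 12 and 14, 14 and 17, 15 and 17, and 1 and 4 in ESCs.

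The embryoid body lists left long stretches of the clusters without any peak. One, chr3:96181433-96312319, spanned 130.9 kb with all 10 genes of the chromosome 3 cluster. Another, chr13:21750850-21855042, spanned 104.2 kb with 11 genes: the divergent pairs H2ac15 and H2bc15, and H2ac22 and H2bc22, the linker histone gene H1f5, the H3 gene H3c11, and the 5 copied genes of that cluster. A further stretch, chr13:23586164-23683576, spanned 97.41 kb around H1f4, a linker histone gene. In all, 24 of the 63 genes (38.1%) had an end peak in at least 1 ESC list and in no embryoid body list, against 2.36% of all genes. Of these 24, 9 were copied genes and 15 were not. By their file names, regions of a blacklist had been removed from the embryoid body lists. Which regions it holds is not given in the sources used here, and its part in the empty stretches was not tested.

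H2ac15, H2bc15, H2ac22 and H2bc22 were the clearest such genes, with an end peak in all 6 C9, H9 and WDR5WT lists and in no embryoid body list (4 of 63, 6.35%, against 0.672% of all genes). The H2ac15 peak had a −log10 p of 3.775 and 4.199 in C9, 4.241 and 4.321 in H9, 4.060 and 4.387 in WDR5WT, 4.714 in parental replicate 1 and 4.584 in S91K-Y191F replicate 2. Its percentiles of 46.3 to 80.9 place it around or above the middle of each ESC list that held it. Parental replicate 2, S91K-Y191F replicate 1 and both backbone lists had no peak there. The reverse, an end peak in all 4 embryoid body lists and in none of those 6 ESC lists, held for H2ac4 and H3c2, an H2A and an H3 gene (3.17%, against 6.62% of all genes). H2ac4 and H3c2 did have end peaks in parental ESC replicate 1 and S91K-Y191F replicate 2.

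**Figure D4:**
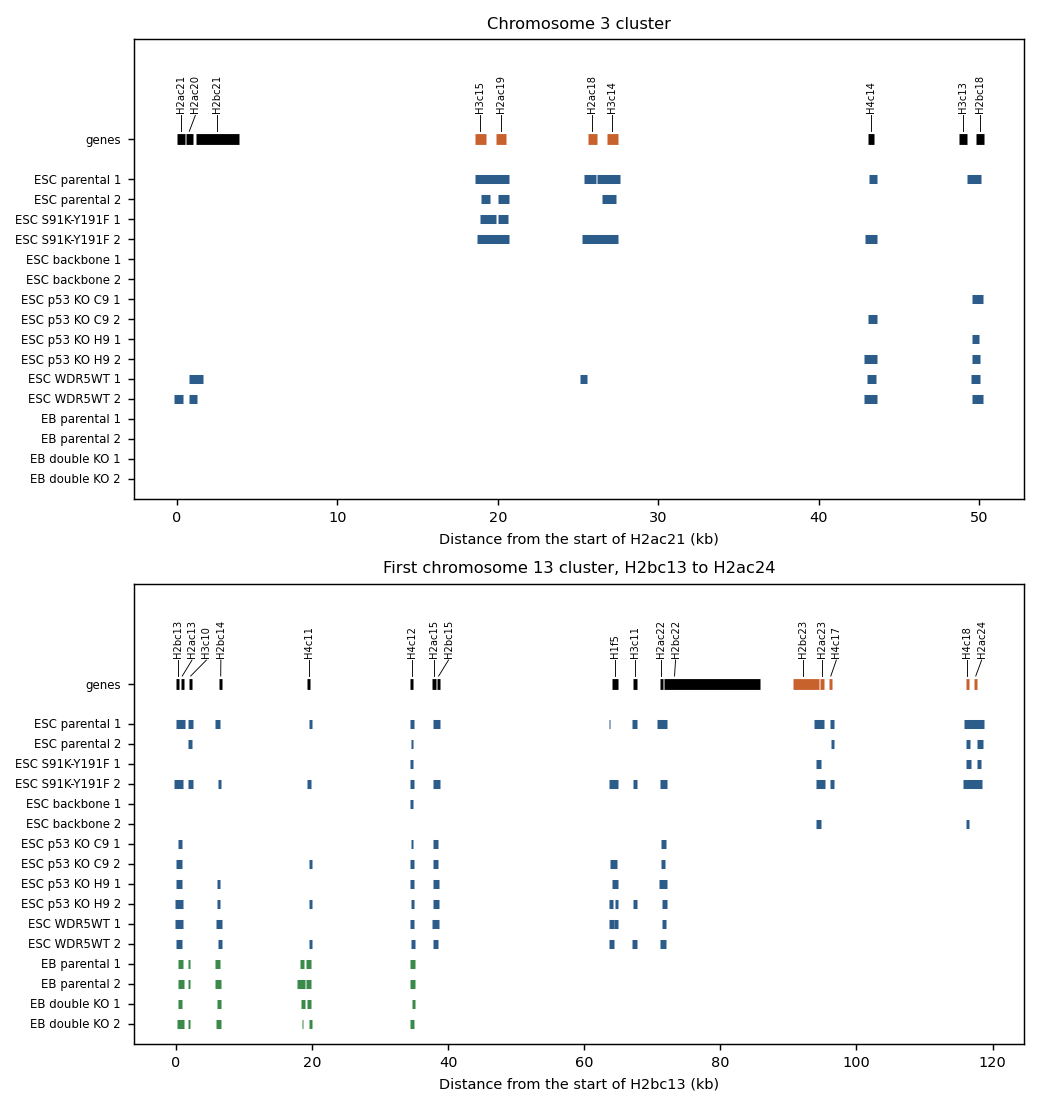
Peaks at histone gene ends (thick bars, 1 line per list; blue for ESC lists and green for embryoid body lists) along the chromosome 3 cluster (top) and the first part of the first chromosome 13 cluster (bottom), in kb from the start of H2ac21 or H2bc13. Genes are drawn above, in orange where the promoter has a near-identical copy; no green bar appears in the top map, and in the bottom map none appears beyond H4c12.

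Regions away from the gene ends were also counted. Merged over all 16 lists, 66 regions lay within 20 kb of a histone gene, and 47 of them were at a histone gene end. Of the other 19, 18 were found in at least 1 embryoid body list, and 3 were found in a C9, H9 or WDR5WT list. The embryoid body lists are also the longest. The same shares over all regions were not worked out, so these counts are not read as a trait of the histone clusters. The region away from gene ends that was found most often, chr13:22050448-22051482, lay past H2bc11 in 13 lists.

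The histone classes differed within some groups, but no class had the largest share of its genes in every list. In WDR5WT the lists had end peaks at 4 and 5 of 6 H1 genes, 11 and 11 of 17 H2A, 12 and 14 of 16 H2B, 7 and 8 of 12 H3 and 9 and 10 of 12 H4 genes. In C9 the counts were 3 and 3 for H1, 9 and 9 for H2A, 10 and 9 for H2B, 4 and 3 for H3 and 6 and 7 for H4, so H3 genes had the fewest for their number. In parental ESC replicate 1 all 12 H3 and all 12 H4 genes had an end peak, and in replicate 2 only 4 and 5 did. H4 genes had end peaks at 9 of 12 in each embryoid body list, a larger share than any other class there. The H2B genes had them at 9 or 10 of 16 in these lists. These are counts over genes that share promoters and peaks, and no test was made of them.

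**Figure D5:**
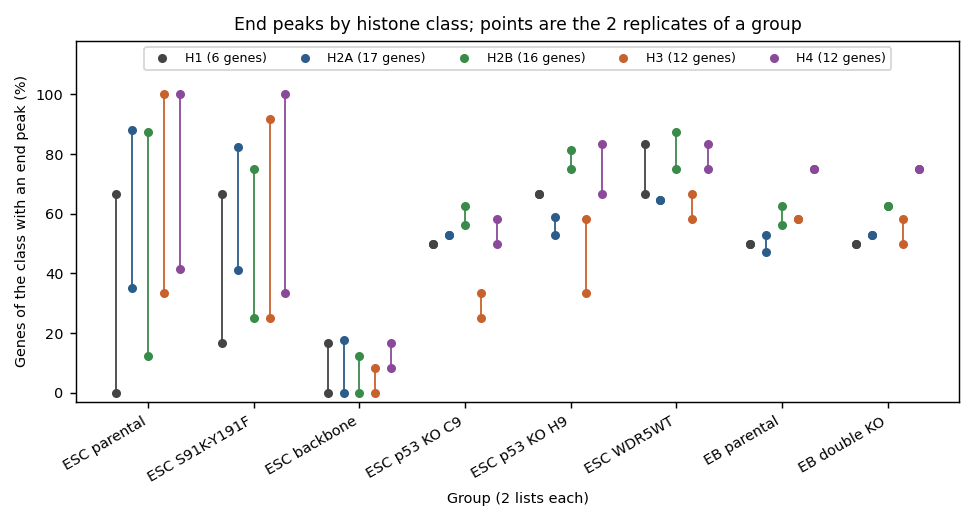
Share of the genes of each histone class with an end peak (y axis, %) in each group (x axis); the 2 points joined by a line are the replicates, and colours are the classes. The replicates of the parental and S91K-Y191F ESC groups are far apart in every class, and those of C9, WDR5WT and the embryoid bodies are close.

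The copied genes divided the ESC lists almost completely. Of the 9, 9 and 7 had an end peak in the parental ESC lists, 6 and 9 in S91K-Y191F and 0 and 4 in backbone. In C9, H9 and embryoid body lists none had one, and in WDR5WT 1 did in replicate 1 and 0 in replicate 2. The exception was H2ac18, with a peak at chr3:96244984-96245465 of −log10 p 3.354, with its summit at -111 bases from the start site. Of the 63 genes, 9 (14.3%) had end peaks in parental, backbone or S91K-Y191F lists and nowhere else, against 0.676% of all genes. These were 8 copied genes and the H3 gene H3c4, whose end peaks were, in parental replicate 1, only the peak of the neighbouring H2bc7 and H2ac7 promoter. Of them, 6 (9.52%, against 0.334% of all genes) had end peaks in both parental ESC lists and in no C9, H9, WDR5WT or embryoid body list. The promoter pairs printed above show how alike the copies are. The parental, backbone and S91K-Y191F lists are also those whose single widest peak is longest, though not those with the larger median width. The part of multiply mapped reads was not tested.

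At H3c15, an H3 gene, and its neighbour H2ac19, a single peak of 2151 bp covered both in parental ESC replicate 1, with a −log10 p of 4.945. Replicate 2 had separate peaks of 3.297 and 3.447, S91K-Y191F replicate 1 had 3.413 and 3.503, and S91K-Y191F replicate 2 had a single peak of 5.256. Within their own lists, the 2 single peaks stood at percentiles 86.3 and 91.8 and the separate ones at 23.4 to 39.2. No other group had a peak at H3c15. H4c18, an H4 gene, had −log10 p values of 4.652 and 3.968 in parental ESCs, 2.895 and 5.142 in S91K-Y191F and 3.393 in backbone replicate 2. The 4.652 and 5.142 belong to single peaks of 2959 and 2775 bp over both H4c18 and H2ac24. In parental replicate 1 the summit lay at -1712 bases from the H4c18 start and -434 from that of H2ac24. The 2.895 peak stood at percentile 0.599 of its list.

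For the comparisons between groups, a gene was called for a group when every list of that group and no list of the other had an end peak, and regions within 20 kb were called the same way. Between double knockout and parental embryoid bodies, which addresses the loss of Wdr5 and p53 during differentiation, no histone gene was called in either direction. The background was 0.694% of all genes for the double knockout and 0.818% for the parental direction. Of the 63 genes, 35 had an end peak in all 4 lists (55.6%, against 61.2% of all genes) and 25 in none. The other 3 were mixed: H3c10, an H3 gene, lacked one in double knockout replicate 1, and H2bc1 and H2ac1 lacked one in parental replicate 2. Of 49 regions, 35 were in all 4 lists (71.4%, against 28.4% of all regions). Most regions near histone genes lay at gene ends. How many of all regions do was not counted, so these shares may not be of like sets. A region 7789 bp past H2ac1 (chr13:23942702-23943180) was called for the double knockout, against 4.69% of all regions. A region 11796 bp from H4c8 (chr13:23518968-23519248) was called for the parental group, against 4.27%. Leaving out parental replicate 1 called 2 genes for the double knockout, leaving out double knockout replicate 2 called 1 for the parental group, and 3 regions were called for the double knockout without either of its lists or without parental replicate 1. For the parental group, 4 regions were called without its replicate 2, 2 without its replicate 1 and 3 without double knockout replicate 2.

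At H2bc9, an H2B gene, the embryoid body groups gave nearly the same peaks. The peak at its start had a fold enrichment of 5.870 and 4.643 in parental and 5.252 and 4.589 in double knockout lists, and that of H2bc12 had 4.638 and 5.533 in parental and 5.536 and 4.292 in double knockout lists. Both groups overlap at both genes.

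Between backbone and parental ESCs, which differ by Wdr5, p53 and the plasmid, 10 genes were called for the parental line (15.9%, against 7.92% of all genes) and 0 for backbone (0.0183%). They were H3c15, H2ac19, H2ac18, H3c14 and H4c17, which are copied genes, and H2ac13, H3c10, H2ac12, H2bc12 and H4c9, which are not. H2ac12 and H2bc12 shared their peak. In parental replicate 2 the only H2ac13 peak was the one at H3c10, and the only H2ac18 peak was the one at H3c14. The 10 genes are therefore not separate observations. Without the copied genes 5 were called, and without parental replicate 2 the count was 47. Without backbone replicate 2 it was 16. Of 43 regions, 7 were called for the parental line (11.6% of all regions) and 0 for backbone (0.430%), and without parental replicate 2 the 7 became 37. At H2bc12, a divergent H2B gene that holds the octamer in the sequence above, the −log10 p was 4.590 and 3.297 in parental ESCs. With all lists held to equal length, no gene or region was called. That length was 1535 peaks, set by backbone replicate 1, where they reached 1.25% of all genes. Few calls were possible at this cut, and it was not counted over all genes, so no reading of the histone genes is drawn from it.

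The backbone lists also serve in the 2 rescue comparisons, so these share their control and are not independent. S91K-Y191F against backbone called 9 genes for S91K-Y191F (14.3%, against 8.32% of all genes) and 0 for backbone (0). They were the copied genes H3c15 and H2ac19, the H4 gene H4c9, the divergent pairs H2ac11 and H2bc11, and H2ac8 and H2bc8, and the neighbours H2ac10 and H3c8. Neighbouring genes share peaks, so the 9 are not separate observations. Without S91K-Y191F replicate 1 the 9 became 43, and without backbone replicate 2 they became 18. Of 43 regions, 6 were called for S91K-Y191F (15.6% of all regions) and 0 for backbone (0.408%), which became 37 and 11 without the same lists. At the H2ac11 and H2bc11 promoter the −log10 p was 3.756 and 5.063 in S91K-Y191F.

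WDR5WT against backbone called 36 genes for WDR5WT (57.1%, against 43.7% of all genes) and 0 for backbone (0.219%). They included all 6 chromosome 3 genes counted as not copied, of which H2bc21 and H4c14 could not be checked. Of the linker histone genes, they included H1f5, H1f3 and H1f1. No copied gene was called. Neighbouring genes share peaks here too, so the 36 are not separate observations. Of 41 regions, 26 were called for WDR5WT (63.4%, against 64.8% of all regions) and 0 for backbone (2.19%), so the regions near histone genes were called at the rate of all regions. Without backbone replicate 1, 4 genes and 2 regions were called for backbone. With equal list lengths, again 1535 peaks each, no gene was called in the rescue comparisons, where few calls were possible.

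The p53 knockout clones against the parental line, 4 lists against 2, called 7 genes for the parental line (11.1%, against 0.356% of all genes) and 0 for the clones (4.50%). All 7 were copied genes: H3c15, H2ac19, H2ac18, H3c14, H4c17, H4c18 and H2ac24. Of 45 regions, 5 were called for the parental line (2.44% of all regions) and 0 for the clones (11.9%). Of these 5 regions, 4 lay at copied genes, and the other, chr13:21717473-21718169, lay over H3c10. Without parental replicate 2 the genes called for the parental line became 14 and the regions 11, and without parental replicate 1, 18 genes and 11 regions were called for the clones. With equal list lengths 10 genes were called for the parental line. A direction must hold in 4 lists for the clones and in 2 for the parental line, so the counts of the directions do not compare directly.

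WDR5WT against the p53 knockout clones compares ESC lists that do not cross the division by widest peak. It called 5 genes for WDR5WT (7.94%, against 1.15% of all genes) and 0 for the clones (0.119%). These were H2ac21, H2ac20 and H2bc21, which are neighbours on chromosome 3, and H2bc9 and H3c7, which are neighbours on chromosome 13. Of the 63 genes, 25 had end peaks in all 6 lists (39.7%, against 38.1% of all genes). Of 40 regions, 3 were called for WDR5WT (3.25% of all regions) and 0 for the clones (1.85%), and without WDR5WT replicate 1 or C9 replicate 1 there were 5. Without WDR5WT replicate 2, 2 genes and 1 region were called for the clones. The 5 genes rest on 3 regions, so they are not 5 separate observations.

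The region at H2ac20 (chr3:96220629-96221529) covered its start site, whose sequence with CCAAT and TATAAA letters is shown above. Its peak was weak in both WDR5WT lists, with −log10 p values of 3.435 and 3.511 at percentiles 18.5 and 22.8, and no other list had a peak there. At H2bc9 a peak at the start site (chr13:23543118-23543638) had −log10 p values of 3.513 and 3.900 in WDR5WT, with summits at 16 and -35 bases from the start. A separate peak of 3.435 and 3.511 lay over H3c7. Parental ESC replicate 1 and S91K-Y191F replicate 2 had a peak over H3c7 only, of 3.773 and 3.599. All 4 embryoid body lists had both peaks. By promoter window in place of gene ends, 2 genes were called.

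Clones C9 and H9, both p53 knockouts, differed at 4 genes called for H9 (6.35%, against 2.30% of all genes) and 0 for C9 (0.242%). These were H2bc14, an H2B gene, H4c3, an H4 gene, and the neighbours H2bc6 and H1f4. Of 34 regions, 3 were called for H9 (4.63% of all regions) and 0 for C9 (2.26%). At H1f4 the −log10 p in H9 was 3.736 and 3.317, at percentiles 38.8 and 11.1, so both peaks are among the weaker of their lists. Without C9 replicate 1 the 4 genes and 3 regions became 8 and 6, without H9 replicate 1 they became 7 and 6, and without C9 replicate 2 there were 5 regions for H9, with 1 gene and 3 regions for C9.

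Other genes of histone biology were read the same way. Of 14 variant histone genes, such as H2az1 and Cenpa, 11 had an end peak in every embryoid body list, as did 18 of 19 genes for histone gene transcription and mRNA processing and 16 of 17 chaperone genes, against 61.2% of all genes. In C9, H9 and WDR5WT lists the counts were 6 to 8, 16 to 18 and 15 to 17, and in backbone lists 0 and 1, 0 and 2, and 3 and 2. Npat, which encodes the histone locus body factor, had an end peak in every list but the backbone ones. Called for S91K-Y191F against backbone were 3 of 14 variant, 9 of 19 factor and 5 of 17 chaperone genes, against 8.32% of all genes. WDR5WT against backbone called 5, 16 and 13 for WDR5WT (43.7% of all genes), and backbone against parental called 3, 6 and 2 for the parental line (7.92%). The p53 knockout clones against parental called Cenpa and the mRNA processing genes Cpsf3 and Eri1 for the clones (4.50%). None of these genes was called for backbone or between the embryoid body groups. Between WDR5WT and the p53 knockout clones, Coil, which encodes the Cajal body protein coilin, was called for WDR5WT (1.15% of all genes), and Cenpa, the centromeric H3 variant, for the clones (0.119%).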

How the data were processed

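ATAC-seq was measured in 16 mouse libraries, and only the peak lists were used, on chromosomes 1 to 19, X and Y. Per the submitters' processing notes, the tools were MACS2 2.1.2, Genrich 0.6, DESeq2, Bowtie2 2.3.5 and SAMtools, with mm10; the role of each is not given in the sources used here. The deposited ESC lists give a score, a signal (the peak's height, scaling not stated) and a −log10 p. The deposited embryoid body lists give a score, a ratio (fold enrichment) and −log10 p and q values. All are the authors' values and rank or describe peaks within a list only. The members and gene lists were chosen with earlier results of these data known. Gene positions and sequences are RefSeq's (GRCm38.p6); H1f9 was not matched. End peaks lie within 1000 bp of a gene end, and peaks overlapping by at least 1 bp were merged. Counts carry no test, since the lists hold no read counts. Genes named are those called in a comparison, those in the most or fewest lists per cluster and class, the leading peak of each list, and Wdr5 and Trp53; H2ac4, H3c2, H3c4 and H3c11 were named after their values were seen. The copy rule, the promoter window and the top 5000 peaks were chosen after seeing the data. Scripts (Python 3.11.15, pandas 2.3.3) were tested on simulated data with 200 genes.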

Additional observations from a re-analysis of the deposited data

How the results depend on the processing

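Peak presence depends on depth and calling, which are unknown, and the counts have no test. End windows of 500 and 2500 bp and merging across 200 bp kept every count within 1.5 times. No paired analysis was possible because the results are counts of peak presence that come from no test. The cause was not tested for any change below, except that shorter lists hold fewer peaks by construction.

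With lists of equal length, the genes and regions called for parental against backbone, S91K-Y191F against backbone and WDR5WT against backbone all became 0 (from 10 and 7, 9 and 6, and 36 and 26). In these comparisons every list was cut to the 1535 peaks of backbone replicate 1, so few calls were possible. Those for H9 against C9 became 1 and 1, and the region for double knockout embryoid bodies 0. With the upper 50% of each list, the genes and regions became 3 and 2 for parental against backbone, 5 and 3 for S91K-Y191F, 13 and 9 for WDR5WT against backbone, 3 and 2 for parental and 2 and 1 for the clones in p53 knockout against parental, and 1 and 1 in each direction but 2 genes for the clones in WDR5WT against the clones. In embryoid bodies it called 1 gene and 4 regions for the parental and 0 regions for the double knockout group. Within 10 kb the parental embryoid body region was lost (0), and within 50 kb 1 region was called for C9. Without the copied genes, 5 genes were called for parental against backbone and 0 for parental against the p53 knockouts, and by promoter window 2 genes for WDR5WT against the clones.

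The genes with an end peak in a list became, with the upper 50%, 3 in parental ESC replicate 2, 11 and 15 in C9, 22 and 26 in H9, 0 and 0 in backbone, 5 in S91K-Y191F replicate 1, and 18 and 21 in WDR5WT. In the top 5000 peaks they were 13 in parental replicate 1, 0 and 2 in C9, 0 and 0 in H9, 29 in S91K-Y191F replicate 2, 0 and 0 in WDR5WT, 4 and 9 in parental and 8 and 6 in double knockout embryoid bodies.

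Leaving out each list in turn gave, for genes and then regions: double knockout embryoid bodies 0 to 2 and 1 to 3, parental embryoid bodies 0 to 1 and 1 to 4; parental against backbone 10 to 47 and 8 to 37; S91K-Y191F against backbone 9 to 43 and 7 to 37; WDR5WT against backbone 37 to 42 and 27 to 33, with 0 to 4 and 0 to 2 for backbone. It gave 0 to 18 and 0 to 11 for the p53 knockouts and 7 to 14 and 5 to 11 for the parental line, 5 to 7 and 3 to 5 for WDR5WT and 0 to 2 and 0 to 1 for the clones, and 6 to 8 and 4 to 6 for H9 and 0 to 1 and 0 to 3 for C9.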
